A study of Arabidopsis thaliana with 6 samples.

Results

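The genes described here are the Aux/IAA, auxin response factor (ARF) and auxin efflux (PIN) genes of Arabidopsis thaliana, the core of the nuclear auxin response and of directed auxin transport. They were taken by name: a locus entered when its symbol or a synonym in the gene table was IAA, ARF or PIN followed by a number only and the gene belonged to one of these families. Of 62 name matches 2 were ADP-ribosylation factors and were left out, which left 60 genes: 29 Aux/IAA, 23 ARF and 8 PIN. A probe was reached for 55 of them, and 47 (25 Aux/IAA, 15 ARF and 7 PIN) passed the filter, a probe well above background on 2 or more arrays of 6, which 20173 loci passed in all.

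Transcripts of whole seedlings were measured on single-colour arrays, 1 array for each of 6 conditions. The 3 lines were wild type of ecotype Columbia-0 (WT) and the mutant lines ago2a and ago2c, which carry mutations in ARGONAUTE2 (AGO2), which encodes a small RNA binding protein of the silencing machinery. What distinguishes the mutations of ago2a and ago2c was not analysed here. All seedlings were 14 days old and grown on half-strength MS medium with sucrose, and they received either a mock treatment or 200 Gy of gamma radiation from a cobalt source at 50 Gy per hour for 4 hours, with RNA measured 24 hours after irradiation. Each RNA was pooled from 3 independent batches of at least 10 seedlings, so no condition had a replicate array, and lines, or arrays sharing a genotype, took the place of replicates. The p-values below measure the spread between these pools only.

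Auxin acts on transcription by removing repressors. Aux/IAA proteins bind ARF transcription factors at the promoters of auxin response genes and hold them back, and auxin joins the Aux/IAA proteins to the F-box receptors TIR1 and AFB, which leads to their degradation. Many Aux/IAA genes are themselves switched on by the ARFs, so their transcripts are widely read as a sign of auxin response, while PIN proteins sit in the membrane and set the direction in which auxin flows from cell to cell, in the root tip above all.

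Signals are given as a percent of the 75th percentile of the processed signal on the same array (scaled signal), and differences on the log2 scale. Each locus is represented by its brightest probe, and levels of different genes are not compared because probes differ in how well they bind. Between 70.3% and 73.2% of spots on an array were well above background and none was saturated. The AGO2 probe gave a scaled signal of 11.5 in WT mock and 24.2 in WT irradiated, both well above background. On the 4 ago2 arrays it lay between 0.289 and 0.913, never well above background, with an adjusted p of 0.64 for the genotype difference (limma). All 7 genes of a damage response list were at least 2-fold higher after irradiation in each line. Leaf and root tissue were both present: 12 of 12 leaf markers were well above background on every array, and 15 to 17 of 18 root markers were. The arrays also fell into a pair of array groups by how several probes of 1 locus compared with each other over 5615 loci. What sets these groups apart is not given in the labels. WT mock, WT irradiated and ago2a mock were in the first and the other 3 in the second. The treatment pairs of WT and of ago2c thus each lay inside 1 group, and the ago2a pair was split.

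The 13 genes with no value were unevenly spread. IAA9, IAA15, IAA32, ARF15 and ARF20 were reached by no probe. ARF12, ARF13, ARF14, ARF21 and ARF23 and the endoplasmic reticulum transporter PIN8 had a probe that was well above background on no array. IAA34 was well above background in ago2a irradiated only and ARF22 in WT mock only. Of the 8 closely related ARF genes clustered on chromosome 1 (ARF12 to ARF15 and ARF20 to ARF23), which are known for expression in seeds, none passed. Among the 47 genes with a value, 44 were well above background on all 6 arrays, and IAA20, IAA31 and IAA33, all of them Aux/IAA genes without the usual degron, on 3 arrays each.

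The first comparison asked how the auxin genes responded to gamma radiation in all 3 lines. IAA5 rose 3.41-fold and was the only gene of the 47 that passed the test. No gene was called lower, although IAA33 was dim on every irradiated array after being measurable on every mock array. All 15 ARF genes, which carry the response, had a mean difference within 0.5 (log2) of 0. The share of all loci within that limit was not counted. Across all loci 0.223% were called higher and 0.0149% lower by limma with line as a block and Benjamini-Hochberg adjustment at 0.05. At an unadjusted p under 0.05, 3 of the 47 genes were higher (IAA5, IAA29 and PIN7) and 7 lower (among them IAA3, IAA6, IAA27, IAA28, IAA31 and IAA33), beside 5.68% and 8.22% of all loci. IAA31 and IAA33 passed the filter only through the arrays where they are high, so their p-values are not used as support. The median difference of the 47 genes was 0.03, and that of all loci 0.01.

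IAA5 (AT1G15580) encodes an auxin-inducible repressor that has been linked to drought responses. Its scaled signal was 13.8 in WT mock and 42.3 in WT irradiated, 13.3 and 43.7 in ago2a, and 12.9 and 50.6 in ago2c. Mock arrays lay close together and every irradiated array was far above all of them. WT responded by 1.61, ago2a by 1.72 and ago2c by 1.97, with a mean of 1.77 ± 0.11 (SE, n = 3 lines; limma adjusted p = 0.035). The call held in 10 of 14 settings, with values between 1.52 and 1.86 in all of them. It was lost without ago2a (1.79, limma adjusted p = 0.36), without ago2c (1.67, adjusted p = 0.099), with no filter on dim probes (adjusted p = 0.12) and with the second brightest probe of other loci (adjusted p = 0.072).

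IAA29 (AT4G32280), a repressor gene known for its induction by shade and warmth, had a scaled signal of 10.1 in WT mock and 17.3 in WT irradiated, 9.11 and 18.5 in ago2a, and 9.98 and 15.7 in ago2c. All irradiated arrays lay above all mock arrays. The mean difference of 0.82 ± 0.11 (SE, n = 3 lines) did not pass across all loci (limma adjusted p = 0.14). PIN7 (AT1G23080), an efflux carrier of the root tip and of tropic growth, was the third gene without overlap between treatments. Its signal was 276 in WT mock and 333 in WT irradiated, 279 and 330 in ago2a, and 291 and 378 in ago2c, a difference of 0.30 ± 0.09 (limma adjusted p = 0.31). Irradiated arrays lay above mock arrays without overlap in these 3 genes, beside 8.07% of all loci.

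**Figure D1:**
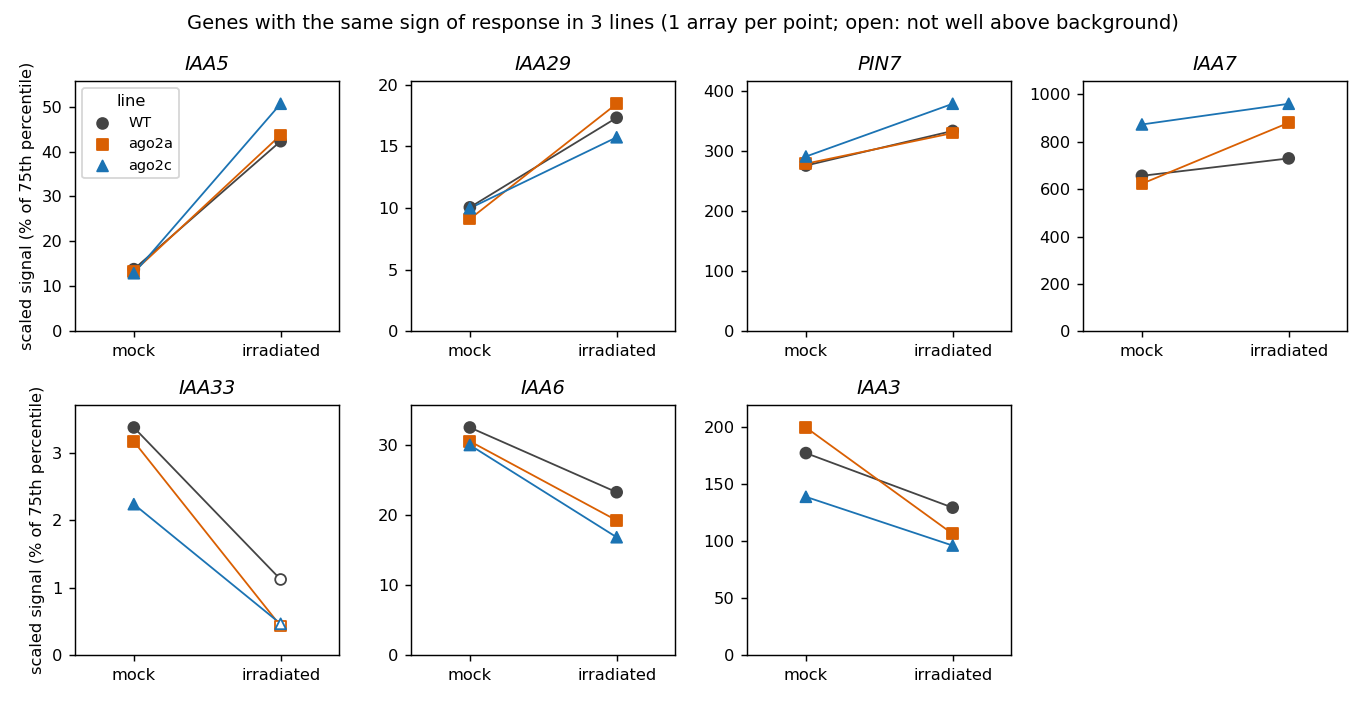
Scaled signal (percent of the 75th percentile of each array, axes from 0) of 7 genes with the same sign of response in 3 lines, mock against irradiated, with 1 array per point, 1 colour and marker per line, and open symbols where the array was not well above background. IAA5 went from 12.9 to 13.8 on mock arrays to 42.3 to 50.6 on irradiated arrays, and IAA33 was dim on all 3 irradiated arrays.

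The other genes named as higher had smaller values. The signal of IAA7 (AT3G23050; AXR2), a repressor whose stabilised form makes plants resistant to auxin, was 656 in WT mock and 730 in WT irradiated, 623 and 880 in ago2a, and 873 and 961 in ago2c. Here the treatments overlapped, because ago2c mock stood near the irradiated ago2a level. The difference was 0.26 (limma adjusted p = 0.42). PIN3 (AT1G70940), a carrier of gravity and light responses, responded by 0.06 (WT), 0.58 (ago2a) and 0.11 (ago2c). ARF11 (AT2G46530), which belongs to the ARF class without an activation domain, responded by 0.04, 0.76 and 0.29 in the same order. In both genes the highest response was that of the split ago2a pair.

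On the lower side, IAA33 (AT5G57420) had the lowest mean. It encodes an unusual Aux/IAA protein without the degron, which is described in Arabidopsis roots as a competitor of IAA5 for binding to ARF10 and ARF16. The scaled signal was 3.38 in WT mock, 3.2 in ago2a mock and 2.24 in ago2c mock, all well above background. After irradiation it was 1.12, 0.43 and 0.46, none well above background, so the fold rests on dim signals. On these signals IAA33 was 4.76-fold lower in irradiated seedlings (n = 3 lines), with 3.02-fold in WT, 7.39-fold in ago2a and 4.84-fold in ago2c. The fold sets the mock mean against the higher, per array, of the dim signal and the lowest signal well above background. For IAA33 the dim signal was the higher on each array, so the fold is the plain ratio and not a bound. The fitted difference of -2.25 ± 0.27 (SE) did not pass (limma adjusted p = 0.12). It was -0.65 with normexp background correction. IAA33 entered the fit through its 3 mock arrays only, where it is high, so no test of this difference is used as support. PLT1, a root meristem regulator and a marker on the root list, had the same layout, well above background on the 3 mock arrays only. It was 3.65-fold lower by the same measure.

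IAA6 and IAA3 also had every irradiated array below every mock array, as had 7.30% of all loci. IAA6 (AT1G52830; SHY1), a repressor first found in screens for light-related growth, had a signal of 32.5 in WT mock and 23.2 in WT irradiated, 30.5 and 19.2 in ago2a, and 30.0 and 16.8 in ago2c. Its difference was -0.66 ± 0.11 (SE, n = 3 lines; limma adjusted p = 0.16). IAA3 (AT1G04240; SHY2), which limits the size of the root meristem downstream of cytokinin, had a signal of 177 in WT mock and 129 in WT irradiated, 199 and 106 in ago2a, and 139 and 95.9 in ago2c. Its difference was -0.63 ± 0.13 (limma adjusted p = 0.21), largest in ago2a at -0.91.

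IAA27 (AT4G29080; PAP2), which was found through its binding to phytochrome, and IAA28 (AT5G25890), a repressor of lateral root formation, were lower in each line but with unequal size. The signal of IAA27 was 153 in WT mock and 130 in WT irradiated, 171 and 90.9 in ago2a, and 127 and 91.8 in ago2c. Its difference was -0.54 ± 0.16 (SE, n = 3 lines; limma adjusted p = 0.30). IAA28 is described with the comparison of the lines below, since it responded by -0.12 in WT but by -1.56 in ago2a and -0.99 in ago2c.

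**Figure D2:**
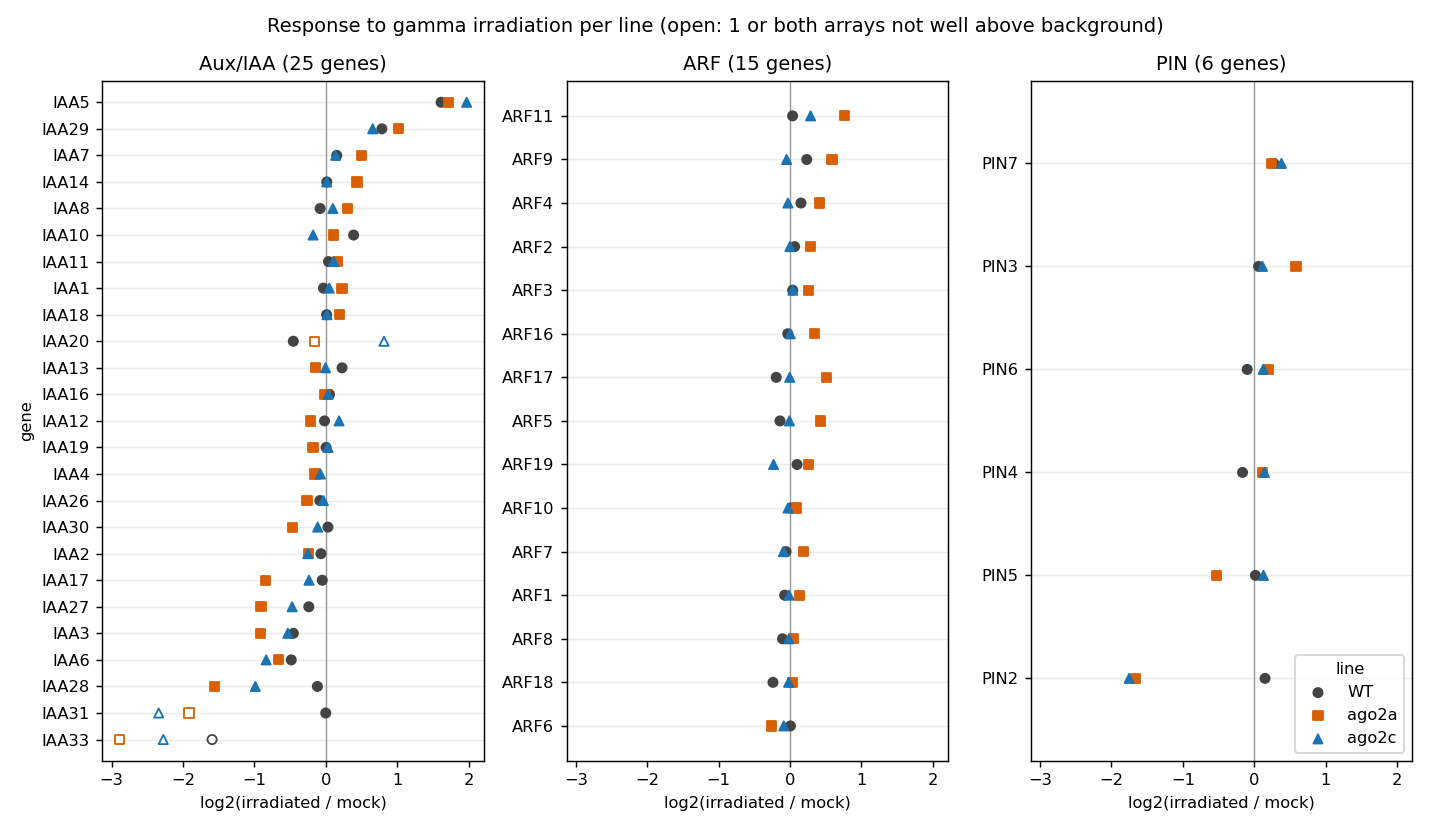
Log2 ratio of irradiated to mock signal in each line for the 25 Aux/IAA, 15 ARF and 6 of the 7 PIN genes with a value, ordered by mean response within a family. Markers stand for the 3 lines and are open where 1 or both arrays were not well above background. Aux/IAA genes spread from -2.89 (IAA33 in ago2a, where the irradiated array was not well above background) to 1.97 (IAA5 in ago2c). ARF genes lay between -0.24 and 0.29 in WT and ago2c, and between -0.25 and 0.76 in ago2a.

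Among Aux/IAA genes the mean irradiation difference ran from -2.25 (IAA33) to 1.77 (IAA5). The low end rests on the dim signals of IAA33 and IAA31, and without these genes the lowest value was -0.89 (IAA28). Of the 25 genes 17 lay within 0.5 of 0, a share not counted over all loci. The sign was the same in all 3 lines for 6 higher and 10 lower Aux/IAA genes, and for 2 higher and no lower ARF genes. Over all 47 genes it was the same for 10 higher and 11 lower, beside 21.4% and 18.0% of all loci. The 4 measured Aux/IAA genes without the usual degron were at 0.07 (IAA20), -0.18 (IAA30), -1.42 (IAA31) and -2.25 (IAA33), and the last 2 passed the filter on 3 arrays each, where their signal was high. Of the other Aux/IAA genes IAA16, IAA8 and IAA11 are examples with values near 0. IAA16 (AT3G04730), for instance, had signals of 1366 in WT mock and 1416 in WT irradiated, 1327 and 1318 in ago2a, and 1253 and 1282 in ago2c. IAA8 (AT2G22670), whose probe was the brightest of the family, had signals from 1972 in ago2a mock to 2884 in ago2c irradiated and a difference of 0.11. Among genes close together on a chromosome, IAA3 and IAA17, with 1 gene between them, were at -0.63 and -0.38, IAA2 and IAA7 at -0.19 and 0.26, and IAA14 and IAA1 at 0.15 and 0.08.

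The ARF genes covered a narrower range than the Aux/IAA genes, a contrast that was not tested or set against other genes. Their mean irradiation differences ran from -0.11 (ARF6) to 0.36 (ARF11). The activators ARF5 (MONOPTEROS), ARF6, ARF7, ARF8 and ARF19 had a median of 0.02. ARF2, ARF3 and ARF4, which are targets of trans-acting small RNAs, had a median of 0.12. ARF10, ARF16 and ARF17, known as targets of microRNA miR160, had a median of 0.10. For the miR167 targets ARF6 and ARF8 the values were -0.11 and -0.02. By line, 8 of 15 ARF genes had a response above 0 in WT, 14 in ago2a and 3 in ago2c, with medians of 0.01, 0.26 and -0.02. Of all loci 47.1%, 56.3% and 51.4% lay above 0 in the same order. The count in ago2a stood at 14 under median scaling, quantile normalization, normexp and the authors' values as well, and median scaling raised the share of all loci there to 71.2%. The ago2c count was not stable under scaling, at 12 with median scaling and 7 with quantile normalization.

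The ARF values also moved with the array groups. In 11 of 15 ARF genes the 3 arrays of the second group lay above all 3 of the first, and in 12 of 25 Aux/IAA genes they lay below. Over the 47 genes this made 17 above and 15 below, beside 30.0% and 18.9% of all loci. The median difference between the groups was 0.23 for ARF genes, of which 14 of 15 were higher, and -0.24 for Aux/IAA genes. Under median scaling, which shifted the median of all loci between the groups from 0.05 to 0.24, these became 0.42 and -0.06. The counts without overlap moved as well, to 14 ARF genes above and 4 Aux/IAA genes below. Of all 20173 loci 9711 then lay above and 2178 below. ARF9 (AT4G23980) shows the layout. Its signal was 55.2 in WT mock, 64.9 in WT irradiated and 58.5 in ago2a mock, against 87.9 in ago2a irradiated and 88.8 and 85.9 in the ago2c arrays. In WT and ago2c, whose pairs lay within a group, the mean response of the ARF genes had a median of -0.04, and that of ARF11 was 0.16. The part of the array groups in these values was not tested.

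**Figure D3:**
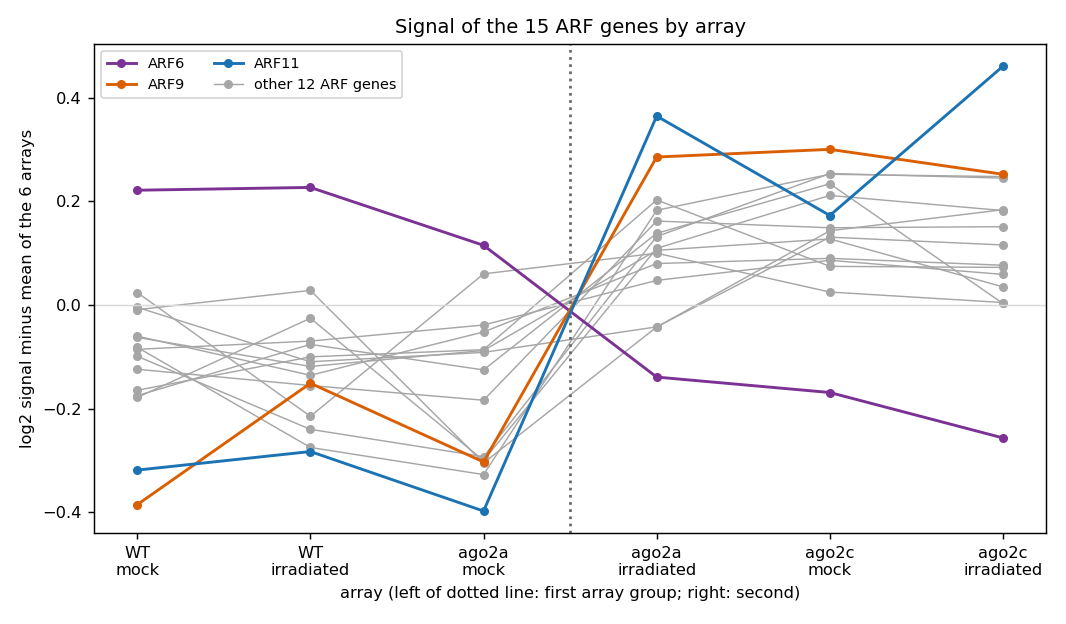
Log2 signal of the 15 ARF genes on each array minus the gene's mean over the 6 arrays, with ARF6, ARF9 and ARF11 in colour and the other 12 in grey. The dotted line parts the first array group (left) from the second (right). In 11 genes all 3 arrays on the right lay above all 3 on the left, and in ARF6 below.

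Several genes had more than 1 probe, and these did not always give 1 picture. The second probe of IAA17 (AT1G04250; AXR3) read 70.3 in WT mock and 69.4 in WT irradiated, 83.5 and 24.0 in ago2a, and 28.0 and 23.8 in ago2c. Its ago2a response was thus -1.80, against -0.84 on the brightest probe. For IAA14 (AT4G14550; SOLITARY-ROOT), a repressor of lateral root initiation, the second probe responded with 0.82 in ago2a and the brightest with 0.44. The probes of PIN6 went opposite ways in ago2a, at 0.20 on the brightest and -0.66 on the other. In WT and in ago2c the gap between the probes was smaller than in ago2a for IAA17, IAA14 and PIN6. IAA18 had 3 probes, which responded in ago2a by 0.19 on the brightest and by 0.08 and -0.48 on the others.

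The second comparison set the responses of the ago2 lines against that of WT, as the series was designed to do. The lowest differences were -2.13 in IAA31, -1.86 in PIN2 and -1.15 in IAA28, and none of them passed. In PIN2 and IAA28 the signal of both ago2 lines was lower on the irradiated array than on the mock array, while that of IAA31 was dim on both ago2c arrays. No gene of the 47 and no locus at all (0% in either direction) passed the test of the difference (limma, smallest adjusted p = 0.16). At an unadjusted p under 0.05 no gene was higher and 4 were lower (PIN2, IAA28, IAA31 and IAA33), beside 0.907% and 7.92% of all loci, so that the share of lower genes was close to that of all loci. The fit had 1 residual degree of freedom, from the difference between ago2a and ago2c, and the single WT pair added no spread of its own. IAA31 and IAA33 entered it through the arrays where they are high and were dim on the others, so their p-values are not used as support.

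PIN2 (AT5G57090; EIR1) is the carrier of the root epidermis and cortex and is required for root gravitropism. Its scaled signal was 11.1 in WT mock and 12.3 in WT irradiated. It was 12.3 in ago2a mock and 3.89 in ago2a irradiated, and 9.91 and 2.94 in ago2c. All 6 values were well above background, the 3 mock arrays and WT irradiated lay together, and both irradiated ago2 arrays lay far below. WT responded by 0.15, ago2a by -1.67 and ago2c by -1.75, and the difference between the genotypes was -1.86 ± 0.23 (SE; limma adjusted p = 0.16). The difference passed with normexp (-1.17, adjusted p = 0.027), median scaling (-1.72, adjusted p = 0.018) and the authors' values (-1.72, adjusted p = 0.018). In each of these settings many other loci were called lower as well, against none in the main fit, so the passes are not particular to PIN2. The counts are given in the closing section. The ago2c arrays lay within 1 array group and the ago2a arrays in both. The part of the array groups and slides in these values was not tested.

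IAA31 (AT3G17600), one of the Aux/IAA genes without the usual degron, was measured close to background. Its signal was 2.75 in WT mock and 2.75 in WT irradiated. In ago2a it was 3.62 in mock and 0.96 in irradiated seedlings, the latter not well above background. The plain ratio was 3.78-fold lower and is not a bound. In ago2c the signal was 1.99 and 0.39, neither of them well above background, so ago2c gave no fold. The fitted difference of -2.13 ± 0.29 (SE; limma adjusted p = 0.16) rests on these dim values, and IAA31 entered the fit through the 3 arrays where it is high.

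IAA28 had a signal of 136 in WT mock and 125 in WT irradiated, 154 and 52.3 in ago2a, and 78.8 and 39.7 in ago2c. Its mock arrays already differed, with ago2c lower than the others. The response difference was -1.15 ± 0.33 (SE; limma adjusted p = 0.37). IAA17 was at 336 in WT mock and 324 in WT irradiated, 392 and 219 in ago2a, and 243 and 206 in ago2c, a response difference of -0.49 (limma adjusted p = 0.91). IAA27 had a response difference of -0.45. In IAA17 and IAA27 the responses of ago2a and ago2c were themselves far apart, at -0.84 and -0.24 in the first and -0.91 and -0.47 in the second.

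**Figure D4:**
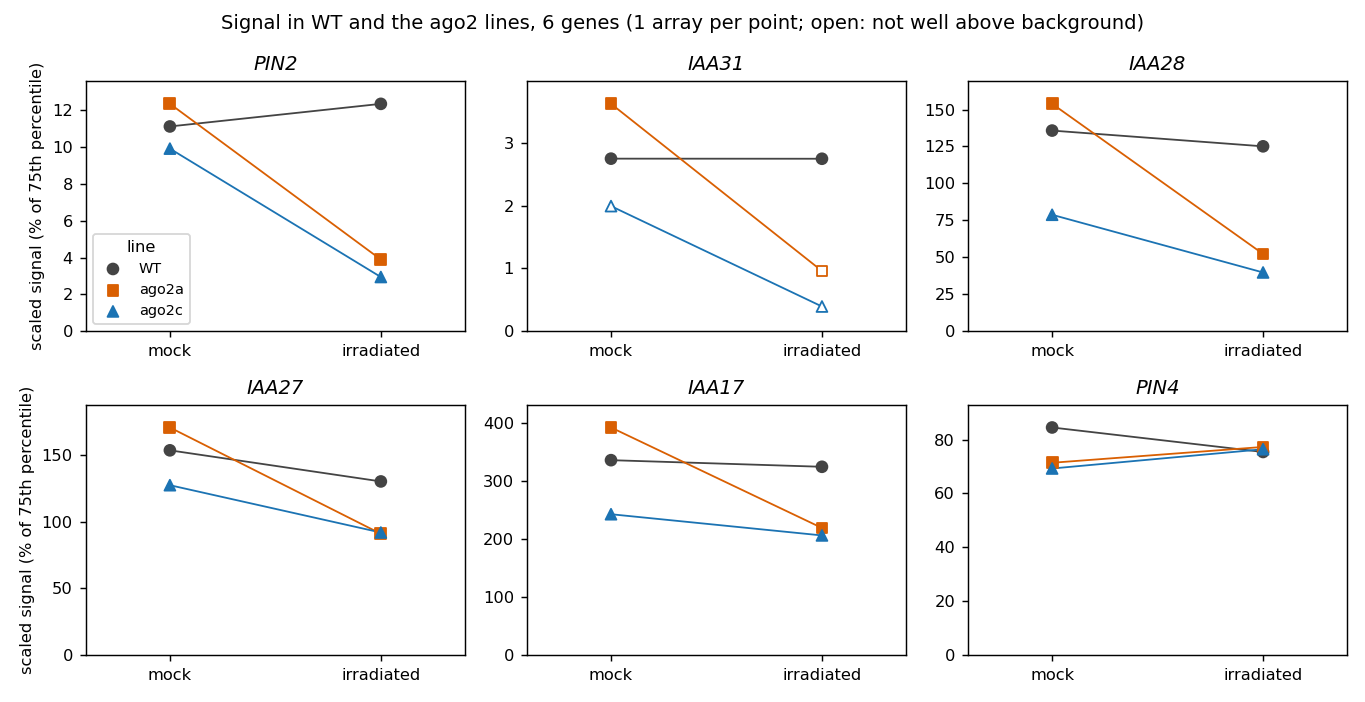
Scaled signal (percent of the 75th percentile of each array, axes from 0) of 6 genes, mock against irradiated in each line, with 1 array per point and open symbols where the array was not well above background. PIN2 stayed at 11.1 and 12.3 in WT and went to 3.89 in ago2a and 2.94 in ago2c, whereas PIN4 lay between 69.2 and 84.5 on all arrays.

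Most root markers moved with these genes. The median over the 18 measured was 0.07 for WT against -1.50 for ago2a and -1.48 for ago2c, and their summed scaled signal was 5464 in WT mock and 7620 in WT irradiated, 6795 and 4262 in ago2a, and 4782 and 2591 in ago2c. Both irradiated ago2 arrays lay below the other 4 in 13 of 18 root markers, among them the endodermal genes CASP1 and MYB36. In WT these responded by -0.10 and -0.05, in ago2a by -1.73 and -1.50, and in ago2c by -1.79 and -1.69. The patterning genes SHR and SCR were not among the 13, with responses between -0.15 and 0.42. NRT2.1 went the other way, with 1 array of each pair dim. It was 2.65-fold lower in WT, 1.94-fold higher in ago2a and 3.15-fold higher in ago2c. In ago2c 2 of 18 root markers were at least 2-fold higher and 11 lower, beside 1.27% and 5.50% of all loci. WOX5, the marker of the quiescent centre, was well above background on the 3 irradiated arrays only, but close to that limit. Its signal was 1.33 in WT mock and 1.30 in WT irradiated, 1.01 and 1.47 in ago2a, and 1.52 and 1.54 in ago2c, so that the second array group lay above the first without overlap, as it did for SCR. For leaf markers the medians were -0.03 (WT), 0.41 (ago2a) and 0.16 (ago2c). Among the auxin genes both irradiated ago2 arrays lay below the other 4 in 12, among them IAA2, IAA3, IAA6, IAA17, IAA26, IAA27, IAA28, IAA30, IAA31, IAA33 and PIN2, beside 15.5% of all loci. They lay above in 6: IAA5, IAA7, ARF11, ARF16, PIN3 and PIN6, beside 15.2%. The part of the root share in these values was not tested, and in whole seedlings fewer cells of a type and less RNA per cell cannot be told apart.

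**Figure D5:**
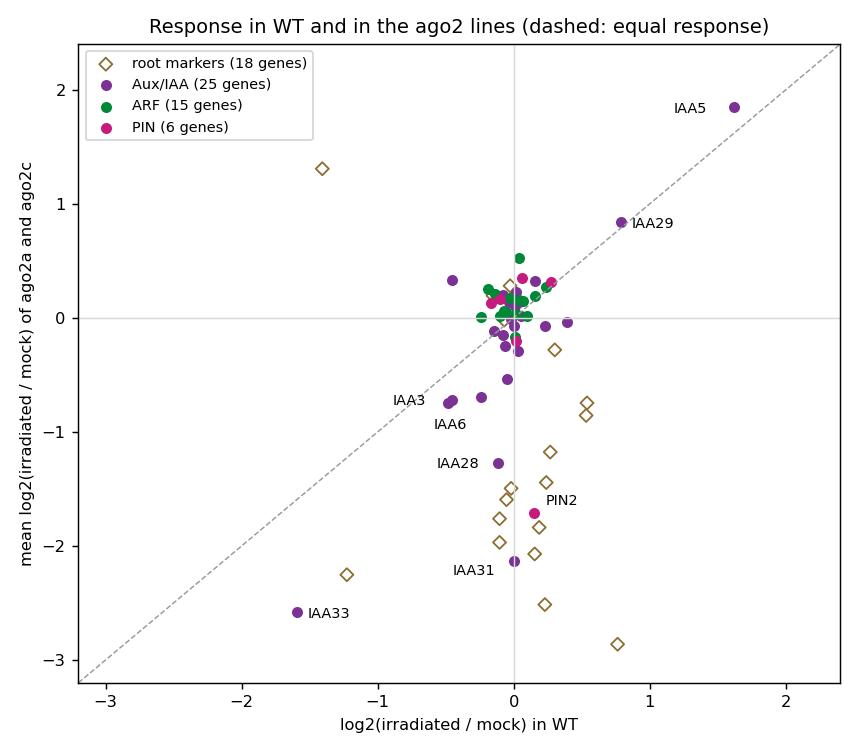
Mean response of ago2a and ago2c (log2 irradiated over mock) against the response of WT for 25 Aux/IAA, 15 ARF and 6 PIN genes and 18 root markers, 1 point per gene. The dashed line marks equal response. IAA5 and IAA29 lay close to it, while PIN2, IAA31 and IAA28 lay below it among most of the root markers.

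Other PIN genes had smaller values, and no response difference among them passed. PIN7 responded by 0.27 (WT), 0.24 (ago2a) and 0.38 (ago2c), and PIN4, which acts in the root tip, by -0.16, 0.11 and 0.14 in the same order. The signal of PIN4 (AT2G01420) was 84.5 in WT mock and 75.4 in WT irradiated, 71.4 and 77.2 in ago2a, and 69.2 and 76.4 in ago2c, a response difference of 0.29 (limma adjusted p = 0.91). The highest response differences among the ARF genes were 0.49 in ARF11, 0.45 in ARF17 and 0.35 in ARF5. All 3 rested mainly on ago2a, where the response of ARF17 was 0.51 and that of ARF5 0.42, against -0.0045 and -0.0088 in ago2c. Counted by line without a test, 1 of the 47 genes was at least 2-fold higher (IAA5) and 1 lower (IAA33) in WT, 2 higher (IAA5 and IAA29) and 4 lower (IAA28, IAA31, IAA33 and PIN2) in ago2a, and 1 higher (IAA5) and 2 lower (IAA33 and PIN2) in ago2c. Of all loci 1.27% were higher and 1.57% lower in WT, 1.39% higher and 7.39% lower in ago2a, and 1.27% higher and 5.50% lower in ago2c.

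The third comparison asked whether the 4 ago2 arrays differed from the 2 arrays of WT, in a fit that also held irradiation. Its values share arrays with the comparisons above. No gene of the 47 was called in either direction, as against 0% of all loci higher and 0.00496% lower (limma, smallest adjusted p of the 47 genes 0.64). AGO2 itself, at -5.03 and dim on the ago2 arrays, was not called either (limma adjusted p = 0.64). The lack of calls is therefore not read as a lack of difference. At an unadjusted p under 0.05 no gene was higher and 2 were lower (IAA33 and ARF6), beside 1.48% and 2.42% of all loci. IAA33 was dim on every irradiated array, so its p-value is not used as support. The ago2 line was higher than WT in 4 of 4 pairs of the same treatment in 7 genes and lower in 10, beside 11.6% and 10.7%. All 4 ago2 arrays lay above both WT arrays in ARF1, ARF2 and ARF10 (5.77% of all loci) and below both in IAA4, IAA16, IAA19, IAA30, ARF6 and PIN5 (5.69%).

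Among genes with 1 sign in all 4 pairs, the highest genotype values were 0.40 in ARF9, 0.38 in IAA14, 0.20 in ARF2, 0.19 in ARF19 and 0.15 in ARF1. ARF11, at 0.45, was higher, but its ago2a mock array lay below WT. ARF1 (AT1G59750), a repressing ARF, is the example with the brightest probe of its family. Its signal was 239 in WT mock and 227 in WT irradiated, 240 and 263 in ago2a, and 265 and 263 in ago2c, so that ago2a mock was barely above WT. In IAA14 the WT arrays and ago2a mock lay between 77.4 and 78.1 and the other 3 arrays between 105 and 114. ARF2 (AT5G62000), which slows growth and is cut by trans-acting small RNAs, read 161 in WT mock and 169 in WT irradiated, 170 and 208 in ago2a, and 190 and 190 in ago2c. ARF19 (AT1G19220), an activator in lateral root formation, lay between 24.4 and 26.1 in WT and between 25.2 and 32.4 in the ago2 lines. With the array group as a block IAA14 was at -0.0098 and ARF19 at -0.025, and the ARF median went from 0.15 to -0.03. These blocked values rest on ago2a mock alone, since the other 3 ago2 arrays share no group with WT.

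The lowest values among genes lower in all 4 pairs and well above background on both WT arrays were -0.38 in PIN5, -0.34 in IAA30 and ARF6, -0.27 in IAA4 and -0.24 in IAA6. Lower values outside these limits were -1.10 in IAA31, -0.94 in PIN2, -0.88 in IAA28, -0.84 in IAA33 and -0.44 in IAA20. PIN5 (AT5G16530), a carrier of the endoplasmic reticulum, read 19.2 in WT mock and 19.4 in WT irradiated, 18.9 and 13.1 in ago2a, and 13.3 and 14.6 in ago2c. ARF6 (AT1G30330), an activator of flower and hypocotyl growth, read 86.6 in WT mock and 86.9 in WT irradiated, 80.4 and 67.4 in ago2a, and 66.0 and 62.1 in ago2c. In both genes ago2a mock stood nearer to WT than to the other ago2 arrays. IAA4 (AT5G43700), an auxin-inducible repressor, read 370 in WT mock and 335 in WT irradiated, 328 and 295 in ago2a, and 281 and 267 in ago2c. For IAA30 (AT3G62100), which has no usual degron, the signals lay between 3.37 and 3.44 in WT and between 2.34 and 3.24 in the ago2 lines, and the value turned to 0.12 with normexp. With the array group as a block PIN5 was at -0.01, ARF6 at -0.12 and IAA4 at -0.14.

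Other genes of the auxin pathway, listed by role, were read in the same fits. None of the 6 receptors, 9 measured synthesis genes, 15 other transport and PIN kinase genes, 8 conjugation and oxidation genes or 11 SAUR, LBD and related response genes was called in any of the 3 comparisons. Among the receptors TIR1 was at -0.01 and AFB1 had the largest irradiation difference, -0.29, made up of -0.22 (WT), -0.33 (ago2a) and -0.31 (ago2c). Of the YUCCA genes of auxin synthesis, YUC3 had a signal of 8.42 in WT mock and 5.01 in WT irradiated, 8.23 and 4.28 in ago2a, and 12.5 and 4.13 in ago2c. That is a difference of -1.10 (limma adjusted p = 0.17) with the same sign in all 3 lines. YUC5 was at -0.89, made up of -0.09 (WT), -0.98 (ago2a) and -1.59 (ago2c). YUC1 was at -0.78 and dim in ago2a irradiated.

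ABCB4, a transporter of root epidermal cells, came closest to the threshold for irradiation among these lists. Its signal was 345 in WT mock and 180 in WT irradiated, 747 and 326 in ago2a, and 144 and 67.3 in ago2c. Mock levels of the lines differed widely and the responses did not, at -0.94, -1.19 and -1.10 (mean -1.08; limma adjusted p = 0.078). The influx carrier gene LAX3 was at -0.58 and AUX1 at -0.36, whereas ABCB1 was at 0.47. In the conjugation group GH3.6 was at -0.36 and GH3.1, dim on 2 of the 6 arrays, at -0.40. Of the auxin response genes SAUR9 was at -0.43 with a like response in each line, while SAUR21 and the lateral root regulators LBD16 and LBD29 differed in sign between WT and the ago2 lines.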

How the data were processed

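Cy3-labelled cRNA from total RNA was read on 6 Agilent arrays, per the labels' protocols. The deposited files hold spot intensities from Feature Extraction 11.0.1.1, with a design annotated on TAIR10, per the file headers. The intensity used was the processed signal, already background-corrected, per the file headers. Of the linear ratios in the authors' deposited series matrix, the scale, centring and origin are not stated. Its column medians lay between 0.878 and 1.06, and it served as an alternative.

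Control and outlier-flagged spots were left out (53 probes). Values were log2 processed intensity minus the array's 75th percentile. Of 43603 probes 34309 were matched by accession to a gene table of assembly TAIR10.1. Each of the 20173 loci was read by its brightest probe. Fits used limma 3.58.1 in R 4.3.3, over all loci, with 2, 3 and 1 residual degrees of freedom for irradiation, genotype and response difference. They were also run on simulated data with independent noise and no array groups, which cannot show how they perform on these arrays. Slide 1 held WT and ago2a, slide 2 held ago2c. The number of arrays limits the precision.

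The genes, lists and tests were chosen with earlier results of these data known. The array groups follow the sign of the first principal component of probe differences within loci. Genes given in full were the called ones; for irradiation the 6 highest and 6 lowest with 1 sign in 3 lines; for genotype the 5 highest and lowest with 1 sign in 4 pairs; for the response difference the 4 highest and lowest; the brightest probe of each family; and examples of subgroups. IAA31, IAA16, the genes given as lying outside these limits and those compared for their other probes were chosen after their values were seen. Alternatives were normexp background correction (offset 50, on the median spot signal), other scalings, the authors' values, other probe filters and probe choices, trended and robust eBayes, blocks, and leaving out a line. The counts cover all 47 genes, but 1 PIN gene is not reported here by name or in the plots. Protein, promoter and small RNA sequences were not analysed here.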

Additional observations from a re-analysis of the deposited data

Results flagged for a closer look

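The search covered the 47 genes and, of each other auxin list, only the few genes with the largest irradiation difference. In 8 of them WT responded to irradiation in one direction and both ago2 lines in the other, each by at least 0.1 (log2). The share of all loci with this layout was not counted, so the number is not read as a result. The differences below are the ago2 mean response minus that of WT, from limma. None of the 8 genes passed the test across all loci. PIN2 differed by -1.86 (adjusted p = 0.16) and PIN4 by 0.29 (adjusted p = 0.91), and their signals are given above. Among the lateral root regulators LBD16 differed by -2.36 (adjusted p = 0.16), from 1.22 (WT), -1.01 (ago2a) and -1.28 (ago2c). LBD29 differed by -2.19 (adjusted p = 0.16). It was well above background on 3 of the 6 arrays only, so its p-value is not used as support. The auxin synthesis gene YUC9 differed by -1.74 (adjusted p = 0.22), from 0.45 (WT), -0.94 (ago2a) and -1.63 (ago2c). GH3.2 and GH3.17, which encode enzymes that join auxin to amino acids, differed by -1.69 (adjusted p = 0.32) and -1.04 (adjusted p = 0.25). GH3.2 was dim on 3 arrays, so its p-value is not used as support. SAUR21, a gene of auxin-induced cell expansion, differed by 0.65 (adjusted p = 0.74). Apart from PIN4 and SAUR21 these genes were lower in the ago2 lines, as were 13 of 18 root markers on both irradiated ago2 arrays, and the part of the root share was not tested.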

How the results depend on the processing

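Of the summary values 145 stayed the same across alternatives and 32 moved. The other values were those of the genes given in full for each comparison and the counts of calls over all loci. Of these 419 stayed, 4 were no longer past the threshold, 7 newly passed it, 3 turned sign and 40 moved. Those that moved were all counts over all loci. Over all 47 genes, values of both signs occurred across the alternatives in 19 genes for irradiation, 33 for genotype and 12 for the response difference. The count of genes called higher after irradiation went from 1 to 0 with no filter on dim probes, with the second brightest probe, without ago2a and without ago2c, and the count called lower from 0 to 1 with median scaling and the authors' values and to 4 (IAA28, IAA31, IAA33 and PIN2) without WT. The count with a lower response in the ago2 lines went from 0 to 1 with normexp and to 2 with median scaling and the authors' values. Both of these raised the median of all loci, the irradiation difference from 0.01 to 0.10 and the response difference from 0.06 to 0.20. The median of the 47 genes moved with them, to 0.11 for irradiation under each and to 0.17 for the response difference. The genotype median of the 47 genes, -0.03, became 0.067 with normexp, 0.086 with median scaling, 0.085 with the authors' values, 0.049 without ago2a and 0.043 on irradiated arrays alone. IAA30 turned to 0.12 with normexp, and IAA14 and ARF19 to -0.0098 and -0.025 with the array group as a block. Within lines, normexp left 0 lower genes in WT, 1 higher and 1 lower in ago2a and 1 lower in ago2c. Probes well above background on all 6 arrays left 0 lower in WT, 2 in ago2a and 1 in ago2c. At 1.5-fold the counts that moved were 2 higher in WT, 4 higher and 8 lower in ago2a, and 3 higher and 4 lower in ago2c. At 3-fold 1 gene, IAA5, was higher in ago2a, as it was in WT and ago2c.

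Over all loci the 45 higher and 3 lower irradiation calls became 71 and 17 with median scaling, 68 and 14 with the authors' values, 68 and 29 with an intensity trend, 1 and 0 with no filter, 17 and 0 with the second brightest probe, 0 and 0 without ago2a, 13 and 6 without ago2c and 141 and 950 without WT. The lower calls were 34 with normexp, 23 when every array had to be well above background and 5 with quantile normalization. The response difference, with no call, had 22 higher and 533 lower with normexp, 101 and 535 with median scaling and 103 and 539 with the authors' values. Except where stated, the cause was not tested. Signals near background, as of IAA31 and IAA33, and 1 array per condition limit what can be read. Irradiation was fitted with the line as a block. No paired analysis was possible by replicate number because the labels give none.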
